A study of Mus musculus with 4 samples.

Results

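The predicted gene array on mouse chromosome 12 is a run of 9 genes that carry only provisional names, lying within chr12:19866969-20509212 of the GRCm39 build. Its members are Gm48641, Gm9259, Gm40853, Gm9265, Gm49692, Gm40881, Mrto4-ps1, Gm10479 and Gm49698, 9 of the 56980 genes in the count matrices, found by symbol. They were put together because their counts were higher in mutant than in control libraries, so that difference is described here with no test, and only measures that did not choose them are tested. The name array holds for position but not for every gene inside it: the stretch carries 28 annotated genes, 24 of them in the matrices, and none of the 15 genes in it that are not members had enough counts to be tested, 7 of them having no count in any keratinocyte.

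The data are single-cell RNA profiles of dorsal skin cells sorted for Epcam and α6 integrin, surface proteins of epithelial and basal epidermal cells, from mouse embryos at E16.5 by the labels (the litter list of the study gives a day earlier). There were 2 Ctrl and 2 TKO libraries, each from 1 embryo. All 4 embryos were Suv39h1 f/f, Suv39h2-/- and Setdb1 f/f on a mixed background and were exposed to tamoxifen. The controls were thus also Suv39h2 knockouts by genotype. TKO embryos also carried K14CreERT2, a recombinase that tamoxifen switches on and that the keratin 14 promoter drives in basal keratinocytes, and Ctrl embryos were K14CreERT2-. The study describes loss of the mark as mosaic, so a TKO library can mix mutant and unrecombined cells.

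Suv39h1, Suv39h2 and Setdb1 are enzymes that place trimethylation on lysine 9 of histone H3 (H3K9me3), a mark of silent chromatin that covers repeats, gene families in tandem and many pseudogenes. A processed pseudogene is an mRNA copied back into the genome, an unprocessed pseudogene is a duplicated gene that keeps its exon layout, and a long noncoding RNA (lncRNA) is a transcript with no recognised protein. Where copies of such genes are nearly identical, a short read from one copy also matches the others, and a counter that keeps only reads with a single place in the genome loses it.

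Along the chromosome the first member is Gm48641, a processed pseudogene at chr12:19866969-19867368 on the minus strand. Next come 3 unprocessed pseudogenes, Gm9259 at chr12:19874892-19880373 on the minus strand, Gm40853 at chr12:20052778-20058397 and Gm9265 at chr12:20161165-20194846, the last 2 on the plus strand. Gm49692, a lncRNA of 2 exons at chr12:20241901-20359079 (plus), is the longest member at 117179 bases, and other annotated genes lie within its span. Among them is ENSMUSG00000130420, a lncRNA of 16 exons on the same strand that the matrices do not hold. Gm40881 at chr12:20369606-20372796 (plus) is an unprocessed pseudogene that the annotation lists as transcribed. It lies within Gm61293, a lncRNA on the same strand that the matrices do not hold, and shares 99.9% of 702 bases with it. Whether reads of either lncRNA were counted for the member it overlaps was not tested. The array ends, all on the plus strand, with the processed pseudogene Mrto4-ps1 at chr12:20467723-20468443, the lncRNA Gm10479 at chr12:20476895-20485418 and the lncRNA Gm49698 at chr12:20501676-20509212.

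Several members are copies of each other and of Hpcal1, the gene of a calcium-binding protein of the neuronal calcium sensor family, which lies closer to the centromere at chr12:17739796-17841964. Of the 36 pairs of members, 7 aligned with each other in their annotated transcripts. Gm9259, Gm40853 and Gm9265 shared 90.4% to 93.6% of 580 to 581 aligned bases, and Gm49698 shared 92.9% to 94.7% of 371 to 378 bases with each of them. Gm10479 and Gm40881 shared 87.0% of 575 bases. The transcripts of Gm9259, Gm40853 and Gm9265 were 89.9% to 90.7% identical to Hpcal1.

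The stretch of 106 bases that Hpcal1 and the pseudogenes have in common is printed to show how few letters separate the copies. Capitals mark bases that differ from the coding exon of Hpcal1 at chr12:17837546-17837651 (plus strand), and all sequences are from GRCm39, read 5′ to 3′ on the strand of the gene. The copies are exon 2 of Gm9259 at chr12:19878488-19878593 (minus), exon 2 of Gm40853 at chr12:20054549-20054654 (plus) and exon 2 of Gm9265 at chr12:20162920-20163025 (plus).
Hpcal1: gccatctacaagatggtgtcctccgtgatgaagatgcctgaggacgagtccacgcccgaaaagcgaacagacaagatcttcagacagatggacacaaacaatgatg
Gm9259: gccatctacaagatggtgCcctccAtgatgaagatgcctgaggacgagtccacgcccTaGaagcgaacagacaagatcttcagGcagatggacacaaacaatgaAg
Gm40853: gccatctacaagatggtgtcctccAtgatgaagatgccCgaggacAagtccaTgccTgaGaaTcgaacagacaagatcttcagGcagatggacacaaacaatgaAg
Gm9265: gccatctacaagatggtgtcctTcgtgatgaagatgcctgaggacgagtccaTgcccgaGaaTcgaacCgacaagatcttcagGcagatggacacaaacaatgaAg

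In this exon Gm9259 differed from Hpcal1 at 6 bases (94.3% identity), Gm40853 at 9 (91.5%) and Gm9265 at 7 (93.4%). Mrto4-ps1 is a closer copy, of Mrto4 on chromosome 4, the gene of a ribosome assembly factor: its transcript was 98.3% identical to Mrto4 over 721 bases. Near the end of both, 120 bases differed at a single letter, set in capitals, between Mrto4-ps1 at chr12:20468320-20468439 (plus) and Mrto4 at chr4:139074970-139075089 (minus). These lines are shown because a count for the pseudogene rests on such letters.
Mrto4: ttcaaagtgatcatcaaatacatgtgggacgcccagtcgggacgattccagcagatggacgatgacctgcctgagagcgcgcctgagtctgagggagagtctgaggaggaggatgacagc
Mrto4-ps1: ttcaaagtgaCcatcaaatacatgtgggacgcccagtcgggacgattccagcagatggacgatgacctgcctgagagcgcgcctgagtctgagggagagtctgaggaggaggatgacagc

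How much of each member a read could be assigned to was measured as the share of its 90-base windows that occur once in the genome. This share does not cover genes that overlap a member on its strand. In the exons this share was 100% for Gm9259, 57.8% for Gm40881, 52% for Gm49692, 49.8% for Gm48641, 28.6% for Gm40853, 22.1% for Gm10479, 18.2% for Mrto4-ps1 and 5.98% for Gm49698. For Gm9265 it was 0 of 313 exon windows. The annotated exons of Gm9265 have an exact counterpart in Gm6943, a pseudogene at chr12:19575994-19613095 outside the stretch, with 100% identity over 580 bases. Across whole genes, introns included, the share was 19.3% for Gm9265, 27.5% for Gm40853 and 42.3% for Gm49698. In the last 411 windows up to the 3′ end of the gene, near which the reads of a 3′ assay tend to lie, it was 56.2% for Gm9265, 18.5% for Gm40853 and 8.27% for Gm49698, and from 28% to 52.1% for the other members except Gm9259 at 91.5%. Over its whole gene Gm9259 stood at 83.3%. The counts of all 9 members are therefore uncertain in their assignment to some degree, and which reads within each gene were counted is not given in the sources used here.

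**Figure D1:**
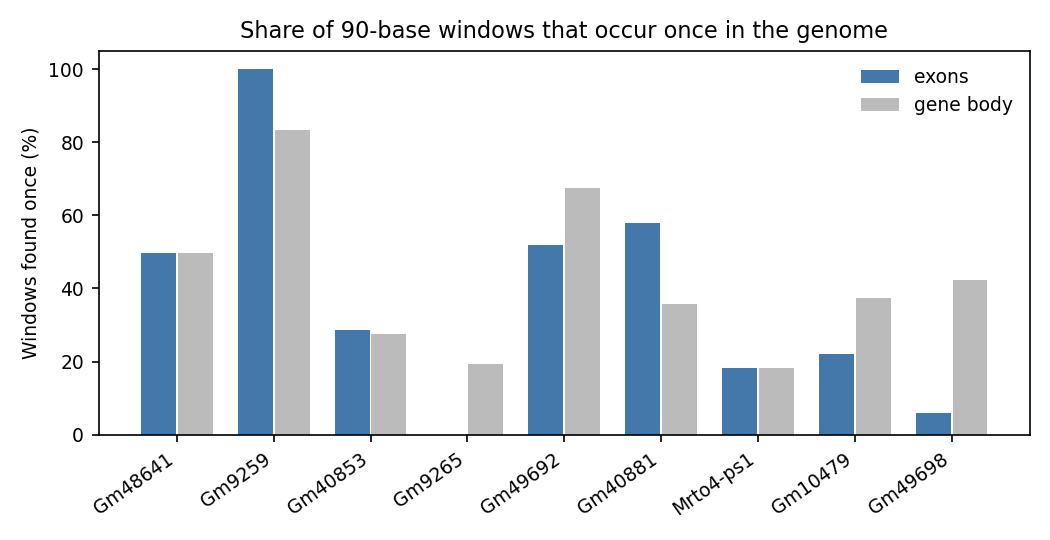
Bars give, for each of the 9 members in chromosome order, the percentage of its 90-base windows that occur once in the GRCm39 genome, in the exons (blue) and over the whole gene (grey). Gm9259 stands at 100% in its exons and Gm9265 at 0.

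The matrices held 19789 barcodes and 309291898 UMIs, from 70749496 to 89655247 a library. A UMI (unique molecular identifier) stands for 1 captured RNA molecule. After filters, 10764 cells were kept, of which 9180 were keratinocytes (2842 and 2987 in Ctrl, 1560 and 1791 in TKO) with median UMIs of 21963 and 17329 in Ctrl and 30076 and 28052 in TKO; no pair of libraries shared more than 3 barcodes. Cells were clustered without the members and without the 1390 genes that differed between genotypes, and clusters were called basal-like, differentiating-like and hair follicle-like from marker genes such as Krt14, Krt10 and Shh. Summed over 8 markers, differentiating keratinocyte genes stood at 16637 and 9848 CPM (UMIs of a gene per 1000000 UMIs of the cells named) in Ctrl but 3898 and 9827 in TKO, so the libraries differed in this cell state. Among the enzymes, Setdb1 stood at 67.9 and 58.2 CPM in Ctrl and 39.5 and 42.5 in TKO keratinocytes (log2 change -0.64, SE 0.13, adjusted p = 0.046 by edgeR's quasi-likelihood test), while Suv39h1 (-0.17, adjusted p = 0.49) and Suv39h2 (0.29, adjusted p = 0.40) were not called. The 3′ reads need not fall in the deleted exons, so these levels check the labels in part.

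All 9 members had more UMIs in each TKO library than in each Ctrl library, although fewer TKO keratinocytes were read. Counts below are sums over the keratinocytes of a library, in the order Ctrl replicate 1, Ctrl replicate 2, TKO replicate 1 and TKO replicate 2. For the Hpcal1-like pseudogenes Gm9265 had 1, 2, 356 and 295 UMIs, which is 0.0147, 0.0349, 6.82 and 5.45 CPM. Gm9259 had 0, 1, 21 and 16 UMIs, and Gm40853 had 0, 0, 25 and 17. The Ctrl libraries were at or near 0 for these 3 genes and the groups did not overlap. Pooled over replicates, the TKO to Ctrl ratio of Gm9265 was 256 (95% counting interval 87.2 to 1244) and that of Gm9259 was 43.6 (7.36 to 1770). Gm40853, with no UMI in Ctrl, was at least 12.8-fold higher in TKO by the exact counting interval of the ratio. With Ctrl set to the limit that a count of 0 allows, 3 UMIs over both libraries, the ratio was 16.51. Intervals and limits cover counting error only.

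The other pseudogenes had the same layout. Gm48641 had 0, 0, 18 and 24 UMIs and was likewise at least 12.8-fold higher in TKO by its exact interval. With Ctrl set to that limit its ratio was 16.51. Gm40881 had 1, 1, 96 and 103 UMIs, a ratio of 117 (32.1 to 976). Mrto4-ps1 had 4, 1, 36 and 33 UMIs (0.0586, 0.0175, 0.689 and 0.609 CPM), a ratio of 16.3 (6.65 to 51.7). In none of the 3 did the groups overlap.

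The lncRNAs had UMIs in both Ctrl libraries. Gm10479 had 28, 19, 128 and 119 UMIs (0.410, 0.332, 2.45 and 2.20 CPM), a ratio of 6.20 (4.52 to 8.66). Gm49698 had 128, 101, 688 and 539 UMIs (1.88, 1.76, 13.2 and 9.95 CPM), a ratio of 6.32 (5.48 to 7.31). In both genes the TKO libraries lay above the Ctrl libraries. Whether their Ctrl levels exceed the background of free RNA was not tested. In Ctrl fibroblast-like cells Gm10479 stood at 0.610 and 0 CPM and Gm49698 at 0.610 and 2.73 CPM. In Ctrl immune-like cells they stood at 0 and 0.689 CPM and at 0.847 and 0 CPM. Each of these Ctrl values rests on at most 4 UMIs. In TKO immune-like cells Gm10479 averaged 0.386 CPM over the 2 libraries and Gm49698 averaged 0.272 CPM. In TKO fibroblast-like cells they averaged 0.134 and 1.92 CPM.

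Gm49692 was the exception in size. It had 1716, 1432, 2160 and 2651 UMIs, or 25.15, 25.01, 41.4 and 48.9 CPM, a ratio of 1.80 (1.72 to 1.89). The Ctrl libraries lay side by side, while the TKO libraries were higher and further apart. As each UMI counts 1 molecule from its 3′ end, with no scaling by length, Gm49692 gave 91.4% and 92.0% of the array's UMIs in Ctrl but 61.2% and 69.8% in TKO. Gm9265 went from 0.0532% and 0.128% of them to 10.1% and 7.77%, and Gm49698 from 6.82% and 6.49% to 19.5% and 14.2%. Because Gm49692 dominates any sum, sums are given below with it (9 members) and without it (8 members). The 9 together made up 27.5, 27.2, 67.6 and 70.1 CPM and the 8 made up 2.37, 2.18, 26.2 and 21.2 CPM.

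**Figure D2:**
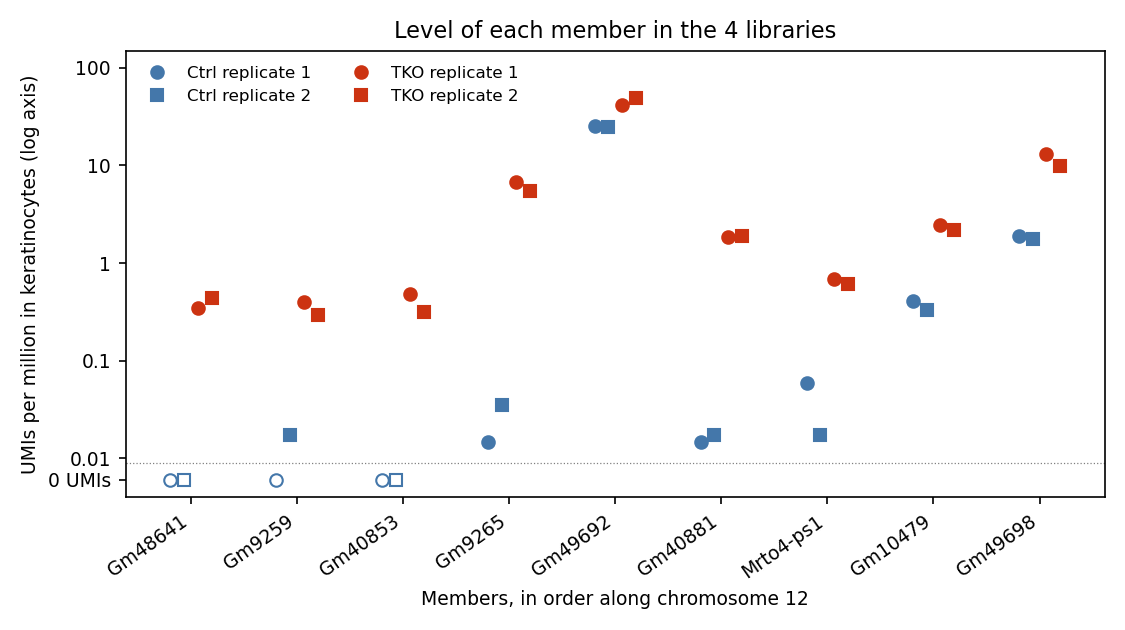
Points show the CPM of each member in the keratinocytes of the 2 Ctrl (blue) and 2 TKO (red) libraries on a logarithmic axis, with open symbols under the dotted line for libraries with 0 UMIs. In all 9 genes both TKO points lie above both Ctrl points, closest together for Gm49692, at 25.15 and 25.01 CPM in Ctrl against 41.4 and 48.9 in TKO.

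In the fit over all genes all 9 members passed the expression filter and had higher values in TKO, where 4.35% of 19933 genes tested were called higher and 29% had both TKO libraries above both Ctrl libraries. These members were chosen on that contrast, so nothing is read from their count. The fitted log2 changes were 7.86 (SE 0.40) for Gm9265, 6.68 (0.44) for Gm40881, 5.09 (0.83) for Gm9259, 3.95 (0.56) for Mrto4-ps1, 2.65 (0.21) for Gm49698, 2.62 (0.28) for Gm10479 and 0.84 (0.13) for Gm49692. Leaving out 1 library moved the change of Gm9259 to between 4.16 and 7.33, the former without Ctrl replicate 1 and the latter without Ctrl replicate 2, since its single Ctrl UMI is in the latter. Likewise Mrto4-ps1 moved to 5.05 without Ctrl replicate 1 and 3.39 without Ctrl replicate 2, and Gm9265 to 7.37 and 8.48.

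The levels of the members within TKO keratinocytes were then compared between cell classes, a contrast that did not choose them. Differentiating-like cells are the suprabasal cells that build the barrier. Gm9265 stood at 6.66 and 6.64 CPM in basal-like cells of the 2 TKO libraries and at 1.33 and 0.572 CPM in differentiating-like cells. The counts behind these values were 236 and 203 UMIs in basal-like and 10 and 7 UMIs in differentiating-like cells. Gm40881 stood at 1.84 and 1.90 CPM (65 and 58 UMIs) in basal-like cells and at 0.399 and 0.163 CPM (3 and 2 UMIs) in differentiating-like cells. For both genes the classes did not overlap between libraries, for Gm40881 on 3 and 2 UMIs in differentiating-like cells. The share of all genes that separate in this way was not computed.

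Across 12 sums, 3 classes in 4 libraries, with the library as a block, 6 of the 9 members had enough UMIs to enter the fit and edgeR called 5 of them lower in differentiating-like than in basal-like TKO cells, in a comparison where 27.9% of 17351 genes were called lower and 25.6% higher. The pseudogenes among them are given as a description, with no p. Their log2 differences were -2.72 for Gm9265 (SE 0.35), -2.66 for Gm40881 (SE 0.53) and -3.49 for Mrto4-ps1 (SE 1.09). Mrto4-ps1 had 28 and 20 UMIs in basal-like and 1 and 0 in differentiating-like TKO cells. These 3 genes passed the filter through the TKO classes where they are high, so a lower value in differentiating-like cells was favoured for them and the count of 5 is no support. For the lncRNAs, which had at least 14 UMIs in each class of each TKO library, the differences were -1.003 for Gm49692 (SE 0.17, adjusted p = 0.0012 by edgeR's quasi-likelihood test) and -0.58 for Gm49698 (SE 0.17, adjusted p = 0.020 by edgeR). Gm10479 was not called (-0.24, SE 0.39, adjusted p = 0.64 by edgeR), at 2.06 and 2.49 CPM in basal-like and 1.86 and 1.55 CPM in differentiating-like cells. Without TKO replicate 2 only Gm9265 and Gm49692 were still called, without TKO replicate 1 Mrto4-ps1 was not, and DESeq2, another count test, called neither Mrto4-ps1 nor Gm49698. With each cell thinned to 5000 UMIs the difference of Gm40881 was -0.94 and was not called. With no library block, at least 1000 genes per cell or Leiden resolution 0.5, 4 members were called. The call lost in each was of Mrto4-ps1 or Gm49698. The share of cells in each class that lost the mark was not measured, so its part in these differences was not tested.

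The 2 lncRNAs with the most UMIs had counts in every class of both genotypes. Gm49698 stood at 13.3 and 11.1 CPM in basal-like, 9.58 and 5.31 in differentiating-like and 15.8 and 11.7 in hair follicle-like TKO cells, against 1.48 to 2.07 CPM in any of these classes in Ctrl. Gm49692 differed between classes in Ctrl already, with 30 and 26.9 CPM in basal-like, 3.59 and 5.94 in differentiating-like and 41.0 and 33.7 in hair follicle-like cells. In TKO its levels were 40.8 and 52.6, 21.02 and 20.01, and 61.4 and 71.2 CPM in the same order. The pooled TKO to Ctrl ratio of Gm49692 was thus 4.62 (3.78 to 5.69) in differentiating-like cells, 1.62 (1.53 to 1.72) in basal-like and 1.79 (1.65 to 1.94) in hair follicle-like cells. The differentiating-like class itself differed between genotypes: its 8 differentiating markers summed to 56401 and 51435 CPM in Ctrl and 24783 and 40775 in TKO, and 10 hair follicle markers to 63.8 and 98.7 in Ctrl and 255 and 310 in TKO. Their part in the ratio of Gm49692 was not tested. Whether these ratios differ between classes beyond replicate error was not tested.

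Hair follicle-like cells are those of placodes and early follicles. Gm9265 stood there at 11.7 and 7.70 CPM and Gm40881 at 3.18 and 3.81 CPM in TKO, in each library above its basal-like level. None of the 6 members tested was called by edgeR between hair follicle-like and basal-like TKO cells, where 11.6% of genes rose and 13.3% fell, nor by DESeq2. Gm49692 (log2 difference 0.38, SE 0.16) and Gm40881 (0.78, SE 0.31) had the smallest adjusted p-values by edgeR, 0.11 and 0.12, and were the 2 members with an unadjusted p under 0.05. Gm9265 differed by 0.39 (SE 0.23, adjusted p = 0.28 by edgeR) and Gm49698 by 0.03 (SE 0.16, adjusted p = 0.91 by edgeR).

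Gm48641, Gm9259 and Gm40853 had too few UMIs per class for the test. Of their TKO UMIs, Gm40853 had 16 and 12 in basal-like, 2 and 1 in differentiating-like and 7 and 4 in hair follicle-like cells. Gm9259 had 12 and 9, 4 and 1, and 5 and 6, and Gm48641 had 11 and 14, 0 and 4, and 7 and 6. In Ctrl the 3 genes together had 1 UMI in these classes, of Gm9259 in basal-like cells.

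**Figure D3:**
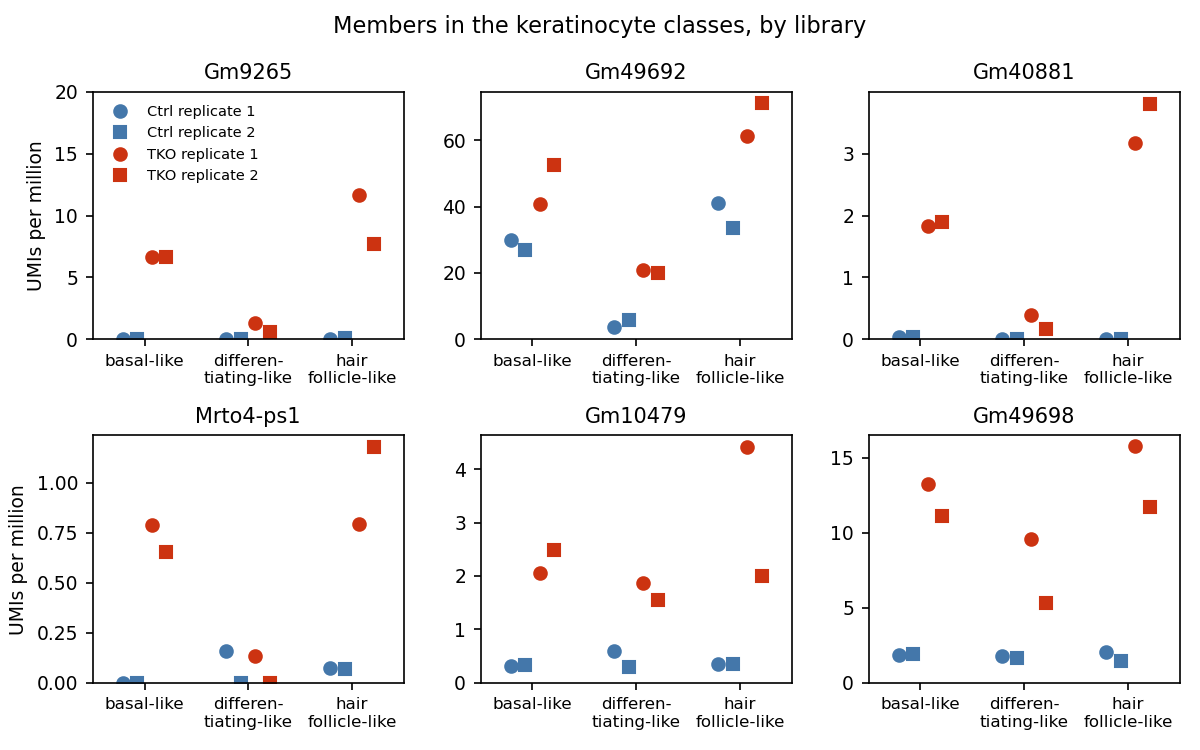
The CPM of the 6 members that could be tested is plotted for basal-like, differentiating-like and hair follicle-like keratinocytes, with 1 point for each of the 2 Ctrl (blue) and 2 TKO (red) libraries and an axis of its own for each gene. In TKO, Gm9265 lies at 6.66 and 6.64 CPM in basal-like cells, 1.33 and 0.572 CPM in differentiating-like cells and 11.7 and 7.70 CPM in hair follicle-like cells.

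Fibroblast- and immune-like cells of the same libraries, in which the keratin 14 promoter is not known to be active, gave the background. In immune-like cells the 8 members made up 0.847 and 1.38 CPM in Ctrl and 1.0 and 1.03 CPM in TKO, and in fibroblast-like cells they made up 1.22 and 3.41 CPM in Ctrl and 3.75 and 3.32 CPM in TKO. In both classes the TKO levels were far under the 26.2 and 21.2 CPM of TKO keratinocytes. Gm49692 was found outside keratinocytes in both genotypes, at 20.1, 10.9, 16.6 and 20.9 CPM in fibroblast-like and 8.47, 3.446, 1.400 and 3.605 CPM in immune-like cells of the 4 libraries. In fibroblast-like cells its groups overlapped.

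Because TKO cells were read more deeply, shares of cells with a UMI were compared after thinning each cell to 5000 UMIs. At least 1 of the 8 members was then found in 0.958% and 1.05% of Ctrl keratinocytes and in 12.3% (95% Clopper-Pearson interval 10.7 to 14.1) and 10.7% (9.31 to 12.2) of TKO keratinocytes. The same share was 0.823% and 0.719% in immune-like TKO cells and 2.19% and 0 of 125 in fibroblast-like TKO cells, where a count of 0 allows 2.40% by the limit of 3 counts and 2.91% by the exact interval. Without thinning, 47.1% and 40.3% of TKO and 5.38% and 3.92% of Ctrl keratinocytes had such a UMI. By gene, Gm9265 was found in 3.28% and 3.20% of thinned TKO keratinocytes, Gm49698 in 6.23% and 5.10%, and Gm49692 in 18.96% and 21.1%, against 11.7% and 11.1% of Ctrl keratinocytes for the last.

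Within positive cells the members were sparse. Gm9265 was found in 241 and 228 TKO keratinocytes at full depth, 71.4% and 78.9% of them with a single UMI, and never with more than 7. Gm40881 was found in 91 and 98 cells, 95.6% and 94.9% of them with a single UMI. Gm49692 reached 14 and 21 UMIs in a TKO cell. The 10 highest cells held 13.2% and 11.2% of the TKO UMIs of Gm9265. For Gm48641, Gm9259, Gm40853 and Mrto4-ps1, found in 16 to 33 cells a library, they held 36.1% to 62.5%.

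Over all TKO keratinocytes, cells with one member tended to carry others. At full depth, of 1560 TKO replicate 1 keratinocytes 825 had none of the 8 members, 508 had 1, 169 had 2, 48 had 3 and 10 had at least 4. In TKO replicate 2 these numbers were 1070, 529, 161, 23 and 8 of 1791. In Ctrl, 2 of 2842 and 0 of 2987 keratinocytes had more than 1. Co-detection at full depth favours cells with more UMIs, so it was also computed per UMI and at equal depth.

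Per UMI, the other 7 of the 8 members made up 32.9 CPM (29.2 to 36.8) in TKO replicate 1 cells with Gm9265 and 16.6 CPM (15.4 to 17.8) in cells without it. In TKO replicate 2 they made up 20.9 CPM (17.9 to 24.3) and 14.8 CPM (13.7 to 16.0). In each library, cells with Gm9265 were thus higher and the counting intervals did not overlap. The same direction held for all 9 members in both TKO libraries, with ratios from 1.43 to 2.64 in TKO replicate 1 and from 1.25 to 1.94 in TKO replicate 2, and with intervals apart for 8 and 7 members. Among basal-like cells alone it held for 9 of 9 members in both libraries, with intervals apart for 7 and 3. Among hair follicle-like cells it held for 8 of 9 in each library, with intervals apart for 5 and 0. Among differentiating-like cells it held for 6 of 9 in each, with intervals apart for 3 and 0, and ratios there went down to 0.59 and 0. The 9 comparisons draw on the same 8 genes and are not independent. Other genes were not split in this way, so no share over all genes stands beside these counts.

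At 5000 UMIs, averaged over all possible draws of UMIs, another of the 8 members was found in 15.9% of TKO replicate 1 cells with Gm9265 and in 8.86% of those without it, and in 10.2% and 7.34% in TKO replicate 2. Gm49692 was found in 29.99% against 17.9% and in 27.8% against 20.8%. These are shares of cells within single embryos, and cells are no replicates of a genotype. Near copies can also share reads, so a UMI of one Hpcal1-like copy may come from another of them, and the part of that in the co-detection was not tested. For Gm49692 the 8 members made up 29.9 and 23.6 CPM in TKO cells with it and 18.8 and 16.51 CPM in cells without it.

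**Figure D4:**
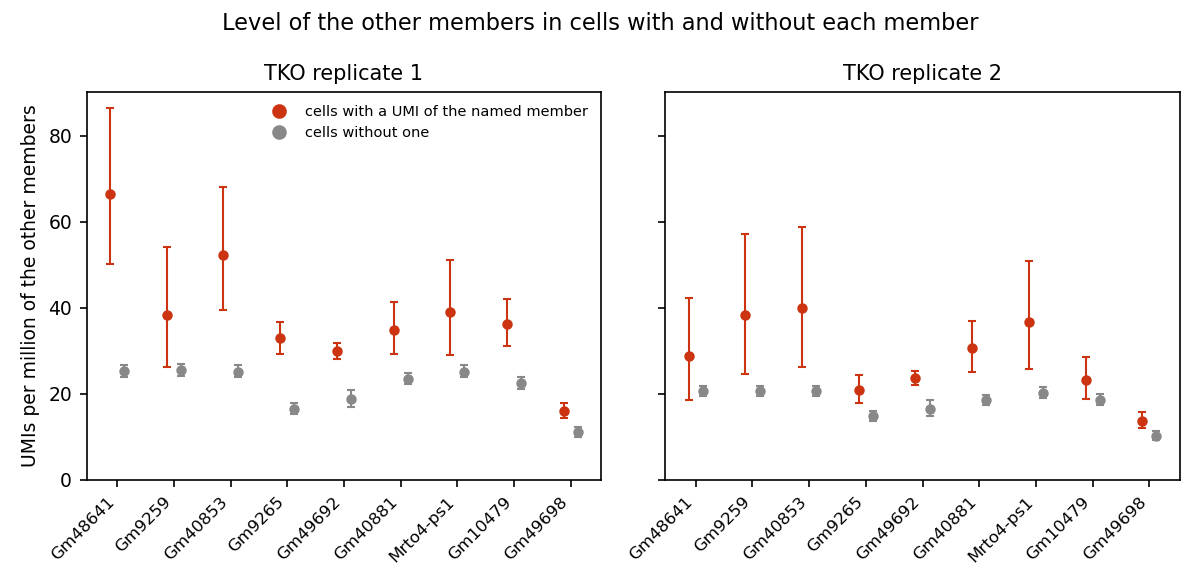
Summed CPM of the other members, out of the 8 without Gm49692, is plotted in TKO keratinocytes with and without a UMI of each member, by library, with exact Poisson 95% counting intervals as error bars. For Gm9265 the values are 32.9 and 16.6 CPM in TKO replicate 1 and 20.9 and 14.8 CPM in TKO replicate 2.

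The members were also set beside 5 genes outside the array that an earlier account of these data named as derepressed in TKO cells, Npffr1, Gm11884, Col28a1, 1700030N03Rik and Gm42653. In 36.2% and 39.5% of TKO keratinocytes thinned to 5000 UMIs none of the 5 was detected, and there the 8 members made up 17.2 CPM (15.3 to 19.2) and 17.8 CPM (16.0 to 19.7). In cells with at least 1 of the 5 they made up 31.0 CPM (29.1 to 32.9) and 23.2 CPM (21.6 to 24.9). The levels in cells with none detected were above the 2.37 and 2.18 CPM of Ctrl keratinocytes, the contrast that chose the members. The split was made at 5000 UMIs a cell, while these CPM use all UMIs. A cell with none detected may thus still express some of the 5 genes. Within basal-like cells the 8 members stood at 14.8 CPM with none detected and 31.5 CPM with at least 1 in TKO replicate 1. In TKO replicate 2 they stood at 16.4 and 28.4 CPM. Gm49692 stood at 34.1 and 45.2 CPM in the first library and at 47.8 (44.8 to 50.9) and 49.6 CPM (47.3 to 52.1) in the second, where the intervals overlapped. As all 5 genes were picked for their difference between genotypes in these libraries, this is a description.

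Around the array, 73 other genes in the matrices lie on chromosome 12 between 19 and 22 Mb. Of these 26 passed the filter, 9 were called higher in TKO keratinocytes, none lower and 17 were not called, where 4.35% of all genes were called higher and 2.62% lower. As the members were taken out of the window by their values, the count describes what was left. None of the 9 is protein coding. The 6 protein-coding genes that passed the filter, among them Adam17, a membrane sheddase (log2 change 0.27), Asap2 (-0.06) and Ywhaq, a 14-3-3 protein (0.23), were not called by edgeR. The count of 9 fell to 4 without Ctrl replicate 1 and to 2 without Ctrl replicate 2.

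The neighbours with the largest change lie before the array. Gm6802, a processed pseudogene at chr12:19540533-19540658, had 0, 0, 170 and 178 UMIs in the 4 libraries. With Ctrl set to 3 UMIs over both libraries its ratio was 137. Gm6943, whose sequence matches Gm9265, had 0, 0, 23 and 19 UMIs, and Gm49371, a lncRNA that overlaps Gm6943, had 0, 0, 10 and 12. Gm5953 had 10, 6, 110 and 93 UMIs (log2 change 3.87) and the lncRNA Gm49957, which overlaps it on the same strand, 24, 18, 210 and 207 (3.53). In all 5 the groups did not overlap, which their choice by size of change favoured. Of all genes tested, 29% had both TKO libraries above both Ctrl libraries. Going past the array, 1700030C10Rik at 20.9 Mb had a log2 change of 2.64 and the pseudogene Mrto4-ps2 at 21.8 Mb one of 2.26.

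**Figure D5:**
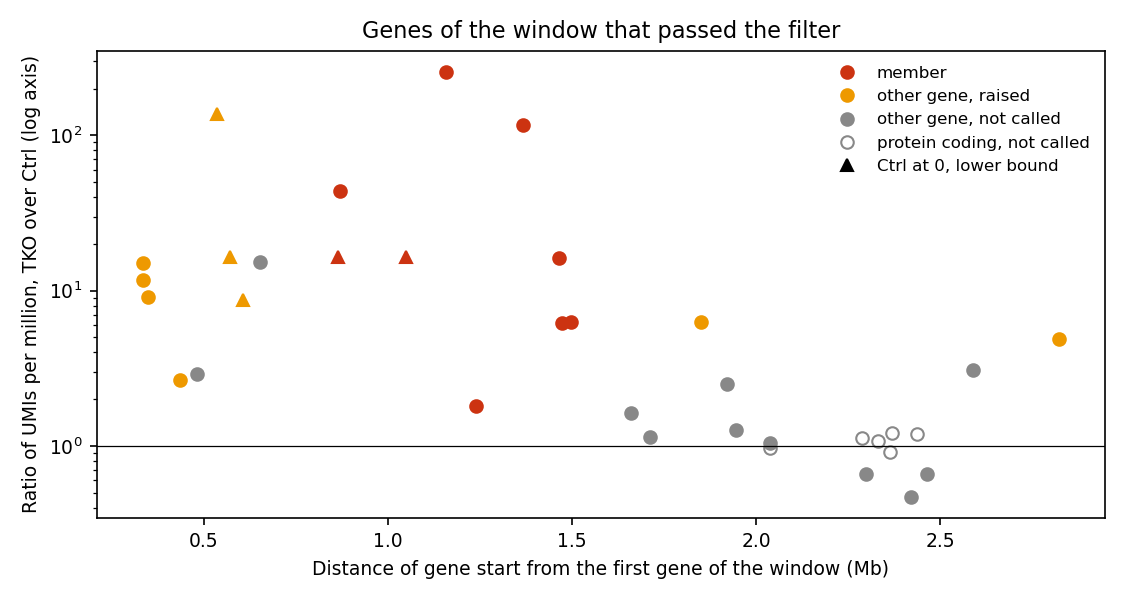
The ratio of pooled CPM in TKO over Ctrl keratinocytes, on a logarithmic axis, is plotted against the distance of each gene start from the first gene of the window (Mb) for members (red), other genes called higher (orange), genes not called (grey) and protein-coding genes (open circles), with triangles for lower bounds where Ctrl had no UMI. The members lie between 1.80 and 256, above the line of equal levels, and the 6 protein-coding genes lie along that line.

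Reads that could be shared were followed to the genes that are no members and match one best, up to 5 for each member besides Hpcal1 and Mrto4. Of 38 such genes, 7 of them in the window between 19 and 22 Mb, 18 passed the filter, of which 8 were called higher in TKO and none lower, where 4.35% of all genes were called higher. On chromosome 12 these were 7 of 11 that passed, and on other chromosomes 1 of 7, Mrto4. Hpcal1 itself was not called (45.5, 44.9, 70.5 and 53.7 CPM, log2 change 0.44, adjusted p = 0.12 by edgeR). Mrto4 stood at 73.8, 73.0, 123.1 and 113 CPM (0.67, adjusted p = 0.017 by edgeR). The 36 and 33 UMIs of Mrto4-ps1 in TKO stood beside 6428 and 6118 UMIs of Mrto4. Of the matches to Gm49698 further along the chromosome, 3110053B16Rik was not called (log2 change 1.30, adjusted p = 0.063 by edgeR), while 9030624G23Rik stood at 16.9, 15.4, 49.4 and 44.5 CPM (1.53, adjusted p = 0.0046 by edgeR) and 2410018L13Rik at 37.3, 35.5, 90.9 and 92.0 CPM (1.31, adjusted p = 0.0042 by edgeR). In the last 2 both TKO libraries lay above both Ctrl libraries, as they did for 29% of all genes tested.

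Of 18 genes of the H3K9me3 pathway, covering its enzymes, readers and partners, all passed the filter, 1 was higher in TKO and 1 lower, beside 4.35% and 2.62% of all genes. The gene that rose was Atf7ip, a partner that stabilises Setdb1 (log2 change 1.51, adjusted p = 0.010 by edgeR), and the one that fell was Setdb1, close to the threshold. Setdb1 was not called with doublets kept, at 5000 UMIs per cell, with no filter, with a replicate block, or without Ctrl replicate 1 or TKO replicate 1 (adjusted p from 0.067 to 0.23 by edgeR), while Atf7ip was called in each of these. Without Ctrl replicate 2 neither was called, and 77 genes in place of 1390 were called over all genes. Among 16844 other genes the pattern of the 9 members summed, Gm49692 included, over the 12 sums of class and library was most like that of 9030624G23Rik (r = 0.991), Csrnp2 (0.987), Ifitm3 (0.986), Scoc (0.985) and Tmsb10 (0.985). The 12 sums come from 4 libraries and include both genotypes, so the difference that chose the members enters this ranking, which is a description and no support for it. The first of these matches Gm40881 and Gm49698 in sequence, at 87.8% and 92.7% identity.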

How the data were processed

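The 4 libraries are 10x Genomics 3′ v3 libraries. The deposited matrices hold UMI counts per gene and cell that the authors made with Cell Ranger 7.1.0 per the file headers (their methods name another version) on GRCm39. Which gene annotation was used, and whether reads in introns counted, is not given in the sources used here. Cells with at least 2000 genes and under 10% mitochondrial UMIs were kept, the cells with the highest Scrublet scores were removed at 0.8% per 1000 barcodes, and the rest were clustered with scanpy 1.11.5 on 2000 variable genes and 30 principal components, aligned between libraries by a rewritten Harmony, by Leiden clustering (resolution 1, 20 neighbours). Clusters were named from marker lists. UMIs were summed per library, or per library and class, and tested with edgeR 4.0.16 (quasi-likelihood test, TMM, filterByExpr) in R 4.3.3, with Benjamini-Hochberg adjustment over all genes tested and calls at an adjusted p under 0.05. DESeq2 1.42.0 was an alternative, as were other filters, depths and clusterings, doublets kept, and each library left out. P-values of the genotype fit measure the spread between 2 embryos a genotype. Those of the class fits measure how class differences vary between the libraries of a genotype, pooled over both genotypes.

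Depth was 70749496 to 89655247 UMIs a library. CPM are UMIs of a gene per 1000000 UMIs of the cells named. Shares of cells with a UMI used 1 draw of 5000 UMIs a cell, and co-detection shares the average over all possible draws. Intervals are exact at the 95% level. Transcripts were aligned with blastn 2.17.0 (E-value 1e-10) on the GENCODE annotation of GRCm39. Genes were named by rule: the 9 members, the 5 called neighbours with the largest change, the 5 genes most like the summed members (log2(CPM + 1), at least 100 UMIs), the 3 targeted enzymes, and the 5 genes of the derepression state; other names, such as matches in sequence and protein-coding neighbours, were chosen after their values were seen. The members and lists were chosen with earlier results of these data known. The fits were tested on simulated data.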

Additional observations from a re-analysis of the deposited data

How the results depend on the processing

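The fits of genotype and class, with their member, neighbour and pathway calls, and 1 value each of detection and co-detection were recomputed with 1 choice changed at a time; near copies, likeness, pooled ratios and levels by derepression state were not. All 9 members stayed higher in TKO under every alternative that fitted them, and with 5000 UMIs per cell only 5 were fitted; 13 of 104 such values moved by more than their SE, among them Gm48641 from 7.52 to 5.31 with doublets kept and Gm40881 from 6.68 to 5.52 at 5000 UMIs. Of 77 values of single members between differentiating-like and basal-like TKO cells, 66 kept direction and side of the threshold, 10 lost the call and 1 turned (Gm10479, 0.28 at 5000 UMIs); Gm49692 was called throughout. The number of members called was 5, but 3 at 5000 UMIs, 3 by DESeq2 and 2 to 5 without 1 library. Between hair follicle-like and basal-like cells it was 0, and 1 (Gm49692) with doublets kept, with at least 1000 genes per cell and with no filter. Values that turned there were Gm9265 at -0.17 with uncorrected components, Gm49698 at -0.067 with Leiden resolution 0.5 and, without TKO replicate 2 or 1, Mrto4-ps1 (-0.13 to 0.70), Gm10479 (-0.46 to 0.97) and Gm49698 (-0.070 to 0.11).

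Genes called between TKO and Ctrl numbered 1390, and 885 with doublets kept, 837 at 5000 UMIs, 887 with no filter, 2651 by DESeq2 and 77 to 2085 without 1 library (77 without Ctrl replicate 2, 224 without Ctrl replicate 1). Replicate numbers are names only. With them as a replicate block 947 genes were called and the pathway genes called went from 2 to 1; the correlation of replicate differences was -0.34, and a crossed pairing, chosen after seeing the data, called 3535 genes and 14 neighbours in place of 9. Pathway genes called were also 1 with doublets kept, at 5000 UMIs and with no filter, and 0 to 2 without 1 library; neighbours called were 2 to 9. Class calls went from 9282 to 5970 at 5000 UMIs and 6108 to 8262 without 1 library (differentiating-like), and from 4318 to 2514, to 2447 with no library block and to 2180 to 3051 (hair follicle-like). The causes were not tested. The share of TKO keratinocytes with any of the 9 members, 28.3%, was 45.4% at 10000 UMIs and 27.1% with doublets kept, and the gap in co-detection, 4.97 percentage points, was 9.20 at 10000 UMIs, so depth limits detection per cell.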

Other observations

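A small class of cells was called Merkel-like from its markers. The study reports that its TKO samples lacked a Merkel cell cluster, so the name does not say that the TKO cells here were Merkel cells. When all cells were clustered together, the cluster led by Merkel genes held 34 and 26 Ctrl and 6 and 7 TKO cells. The 8 members other than Gm49692 had 2 and 1 UMIs there in Ctrl and 16 and 8 in TKO, from 34, 24, 14 and 9 cells, which is 3.19, 2.77, 34.8 and 25.4 CPM. The pooled TKO to Ctrl ratio was 10.2 with a 95% counting interval of 3.09 to 52.9. Of these TKO UMIs 7 and 5 were of Gm49698. Gm49692 had 43 Merkel-like UMIs in Ctrl and 28 in TKO, a ratio of 0.829 (0.496 to 1.37). The class itself differed between genotypes, with basal markers at 3631 and 1259 CPM in Ctrl and 8304 and 7927 in TKO and hair follicle markers at 1162 and 863 in Ctrl and 2540 and 2945 in TKO, and their part in the ratios was not tested. With 9 to 34 cells a library these are values of few molecules, and no class test included them.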
